A study of Mus musculus with 6 samples.

Results

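The 9 genes described here encode S100 calcium-binding proteins and were taken by name, after matching Ensembl identifiers to mouse symbols, from the 55471 genes of an RNA sequencing table. They are S100a1, S100a3, S100a4, S100a6, S100a10, S100a11, S100a13, S100a16 and S100b, and the list leaves out S100g. Mesenchymal stromal cells of the endosteum, the inner bone surface, of C57BL/6J mice were sequenced. There were 3 Bap1 cKO libraries (Prx1-cre;Bap1fl/fl), in which Cre from the limb mesenchyme promoter Prx1 acts on the floxed Bap1 allele, and 3 Bap1 WT libraries (Bap1fl/fl), which carry the floxed allele without the labelled Cre. Bap1 is a deubiquitinase of histone H2A. Neither age nor sex is labelled, and neither is the animal behind each library, so every p-value speaks for the scatter among these libraries, which may be technical. Values are RPKM, read numbers scaled to gene length and to library depth, so levels can be compared between genes.

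S100 proteins are small proteins, most of which form dimers and carry a pair of EF-hand loops that bind calcium. Calcium binding usually exposes a surface that grips target proteins, among them annexins, non-muscle myosin and cytoskeletal proteins, and some members are also released and act on the receptor RAGE. In mesenchymal cells S100a4 is known as fibroblast-specific protein 1, and S100a6 (calcyclin), S100a10 and S100a11 are widely expressed. Most S100 genes lie together on mouse chromosome 3.

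The libraries differed in many other ways that bear on these genes. Of 12223 genes tested, 61.2% passed the test described below, 26.5% as lower and 34.7% as higher in the cKO libraries, and the median log2 difference of all tested genes was 0.09. The excess of higher genes depended on the scaling: 4237 were higher and 3239 lower as given, 3616 and 3771 after scaling by the median of ratios, and 3501 and 3410 with each chromosome centred. Estimated depths, read off the smallest RPKM steps, were 12.9 M to 21.4 M fragments, and cKO replicate 3 was the deepest. Bap1 itself was at 28.27, 25.16 and 22.99 RPKM in the cKO libraries and 22.8, 22.72 and 24.01 RPKM in the WT libraries, which overlap; a value over the whole gene cannot show loss of the floxed exons and so does not check the labels. Of 13 markers of mesenchymal stroma, 12 were tested, 7 were lower and 1 was higher in the cKO libraries. Of these 8, 3 were under 1 RPKM on average in the cKO libraries and so met the minimum for the test only through the WT libraries. The higher one, Pdgfra (limma adjusted p = 0.0451), missed the threshold in 9 of 19 alternatives, among them those without any 1 WT library. The summed level of the 13 markers was 172.2 to 305.2 RPKM in the cKO libraries and 2253.0 to 2395.4 RPKM in the WT libraries. Col1a1, Col1a2 and Cxcl12 made up most of the sum in the WT libraries, and 4 of the 12 tested markers did not pass the threshold. Lepr was at 0.14 RPKM or less in every library. Fewer cells of a type and less RNA per cell cannot be told apart in such bulk libraries.

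All 8 members on chromosome 3 were lower in the cKO libraries, from 1.74-fold for S100a1 to 11.4-fold for S100a13, and S100b on chromosome 10 was near the limit of detection in both groups. Each of the 8 passed limma's test at a Benjamini-Hochberg adjusted p under 0.05, against a background of 26.5% of all tested genes called lower. In all 8 the highest cKO value lay under the lowest WT value, which held in the lower direction for 29.8% and in the higher direction for 39.2% of tested genes. The median log2 difference of the 8 was −1.62. All 8 stood above 1 RPKM in every library, so none entered the test only through the group in which it was high. The summed RPKM of the 9 genes was 4568.4, 5745.4 and 7900.1 in cKO replicates 1 to 3 and 17843.2, 17378.9 and 17931.3 in WT replicates 1 to 3. The sum averaged 6071.3 ± 1689.6 in the cKO libraries and 17717.8 ± 296.8 in the WT libraries (SD, n = 3 each). This is a 2.92-fold lower sum, and S100a6, S100a4 and S100a11 made up most of it in every library. Its exact 2-sided permutation p was 0.1, the smallest that 3 against 3 allows. With each of the 8 genes lower without overlap, the sum had to be so too, and its p adds no support.

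**Figure D1:**
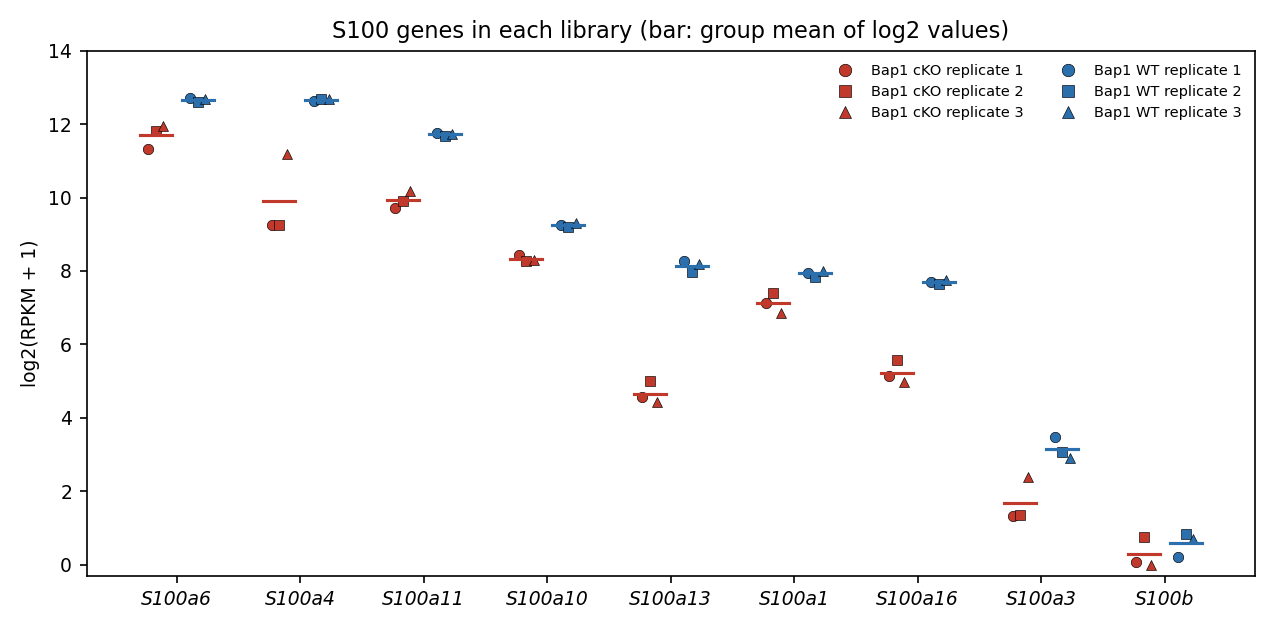
The log2(RPKM + 1) of each S100 gene is plotted per library, with Bap1 cKO libraries (red) left of Bap1 WT libraries (blue), a symbol per replicate and a bar for the group mean. In the 8 genes from S100a6 to S100a3 every cKO point lies under every WT point, cKO replicate 3 of S100a4 stands apart from the other cKO points, and the points of S100b overlap.

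The most abundant member was S100a6, calcyclin, which binds the ubiquitin ligase adaptor Cacybp. Its level was 2570.29, 3617.62 and 3941.92 RPKM in cKO replicates 1 to 3, against 6689.28, 6211.84 and 6620.73 RPKM in WT replicates 1 to 3. All 3 cKO libraries were below the WT range, with replicate 1 the lowest, and S100a6 averaged 3376.6 ± 716.9 RPKM in cKO and 6507.3 ± 258.1 RPKM in WT libraries (SD, n = 3 each). It fell 1.93-fold (log2 difference −0.97 ± 0.157 SE, limma adjusted p = 0.00197). By mean level S100a6 was the 15th gene of the table in the cKO group and the 4th in the WT group.

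S100a4, which binds the tail of non-muscle myosin IIA, fell further and unevenly. The cKO libraries 1 to 3 held 608.03, 608.23 and 2317.04 RPKM, against 6307.26, 6633.38 and 6525.95 RPKM in the WT libraries. Replicates 1 and 2 were nearly alike and replicate 3 lay between them and the WT libraries. The mean was 1177.8 ± 986.6 RPKM in cKO and 6488.9 ± 166.2 RPKM in WT libraries (SD, n = 3 each), a 5.51-fold fall (log2 difference −2.77 ± 0.505 SE, limma adjusted p = 0.00331). Without cKO replicate 3 the fall was 10.7-fold. S100a4 ranked 98th by mean level in the cKO group and 5th in the WT group, in which its range overlapped that of S100a6.

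Markers of smooth muscle and contractile cells also set cKO replicate 3 apart. The summed RPKM of the 7 listed markers was 138.7 and 262.9 in cKO replicates 1 and 2 and 2919.8 in cKO replicate 3, against 2493.7 to 2789.4 in the WT libraries. Acta2 and Tagln made up most of the sum in every library. In cKO replicate 3 Acta2, at 1532.34 RPKM, was under its WT range of 1944.95 to 2145.34 RPKM. Tagln, at 1006.19 RPKM there, was above its WT range of 152.25 to 203.47 RPKM. Of 5 tested markers 2 were lower and none higher. That count was 0 without cKO replicate 1 or 2, without any 1 of the WT libraries and with each chromosome centred, and it was 5 without cKO replicate 3. Over all tested genes 26.5% were lower. None of the 7 was listed at 0 in all libraries, and their part in the S100a4 values was not tested.

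S100a3, the closest neighbour of S100a4, also had its highest cKO value in replicate 3, at a far lower level. The cKO libraries 1 to 3 held 1.51, 1.55 and 4.24 RPKM and the WT libraries 10.2, 7.38 and 6.55 RPKM. Replicates 1 and 2 were again alike, and replicate 3 was nearest to the WT range without reaching it. The fall was 3.31-fold, with means of 2.43 ± 1.56 RPKM in cKO and 8.04 ± 1.91 RPKM in WT libraries (SD, n = 3 each), and 5.26-fold without cKO replicate 3 (log2 difference −1.47 ± 0.319 SE with all libraries, limma adjusted p = 0.00708). The annotated S100a3 gene overlaps S100a2 and Gm42674 on the same strand, and Gm42674 also overlaps S100a4, so the split of fragments between S100a3 and these 2 genes is uncertain. S100a2 reached 0.2 RPKM and Gm42674 reached 1.52 RPKM at most.

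The stretch just before the S100a4 start is shown because S100a4 had the largest loss in RPKM of the 9 genes. It is the 250 bases upstream of the RefSeq start (GRCm38.p6, plus strand, chr3:90603520-90603769, 5′ to 3′), with the TATAAA hexamer in capitals, 31 bases before the start:
S100a4: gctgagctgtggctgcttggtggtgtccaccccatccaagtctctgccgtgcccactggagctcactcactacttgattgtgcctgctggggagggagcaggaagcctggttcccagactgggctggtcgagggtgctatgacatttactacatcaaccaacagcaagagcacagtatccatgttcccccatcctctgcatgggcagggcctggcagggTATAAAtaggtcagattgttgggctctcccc
RefSeq promoter windows of 300 bases, 250 before and 50 after a start, were found for 8 of the 9 members, with 12 windows in all. TATAAA, on either strand, lay in 2 of these 12 windows, 1 of S100a4 and 1 of S100a3, and in 13.6% of 32851 such windows of all genes. A match of letters is a description and not a binding site.

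S100a10 and S100a11 are the 2 members best known as partners of annexins. S100a10 (p11) pairs with annexin A2 in a complex at the plasma membrane. It was at 345.85, 307.6 and 311.49 RPKM in cKO replicates 1 to 3 and at 612.65, 587.69 and 629.32 RPKM in the WT libraries. The 3 cKO values were close together, and the fall was 1.9-fold (321.6 ± 21.1 RPKM in cKO and 609.9 ± 21 RPKM in WT libraries, SD, n = 3 each; log2 difference −0.92 ± 0.0684 SE, limma adjusted p = 7.75e-05).

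S100a11 (calgizzarin), which binds annexin A1, was at 847.63, 965.6 and 1158.88 RPKM in cKO replicates 1 to 3, against 3463.36, 3261.87 and 3385.9 RPKM in the WT libraries. Each cKO library lay far under the WT range, and S100a11 averaged 990.7 ± 157.1 RPKM in cKO and 3370.4 ± 101.6 RPKM in WT libraries (SD, n = 3 each). It fell 3.4-fold (log2 difference −1.78 ± 0.114 SE, limma adjusted p = 4.63e-05). S100a11 and S100a10 are separated by 28792 bases, and the ratio of S100a11 to S100a10 was 2.45, 3.14 and 3.72 in cKO replicates 1 to 3 and 5.65, 5.55 and 5.38 in WT replicates 1 to 3. These ranges did not overlap (exact 2-sided permutation p = 0.1, the smallest possible).

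The S100a11 upstream stretch is shown as the other abundant member with a motif match. It holds 242 bases up to its annotated start (GRCm38.p6, plus strand, chr3:93520246-93520487, from RefSeq, 5′ to 3′), with TGANTCA, the heptamer that AP-1 factors bind, in capitals:
S100a11: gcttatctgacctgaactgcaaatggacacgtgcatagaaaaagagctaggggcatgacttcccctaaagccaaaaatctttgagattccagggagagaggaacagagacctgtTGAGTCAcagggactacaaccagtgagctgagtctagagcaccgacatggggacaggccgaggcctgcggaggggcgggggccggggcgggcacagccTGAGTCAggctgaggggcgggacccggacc
TGANTCA reads the same on both strands and did not overlap the other motifs in these matches. It lay in 2 of the 12 member windows, 1 of S100a11 and 1 of S100a16, and in 7.81% of all windows. GGGCGG, on either strand, lay in 3 of the 12 and in 35.7% of all windows.

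The annexins did not all follow their S100 partners. Of 12 annexin genes 10 were tested, of which 4 were lower, 2 higher and 4 not past the threshold. Over all tested genes 26.5% were lower and 34.7% higher. The median log2 difference of the annexins was −0.15 beside 0.09 for all tested genes. Anxa8, among the 4 annexins that were lower, was at the threshold (limma adjusted p = 0.0494) and missed it in 11 of 19 alternatives. Without cKO replicate 3 the counts were 5 lower and 4 higher, and without WT replicate 1 or WT replicate 3 they were 3 lower and 1 higher. Anxa1, the partner of S100a11, fell 10.1-fold to 92 ± 39.1 RPKM in cKO libraries, against 931.3 ± 34.6 RPKM in WT libraries (SD, n = 3 each; limma adjusted p = 0.000121). Anxa4 and Anxa5, which bind membrane phospholipids, fell 2.83-fold and 2.9-fold (limma adjusted p = 1.24e-05 and 0.000172). Anxa6, an annexin with a doubled core, rose 2.4-fold (adjusted p = 0.000291). It lies on chromosome 11, whose tested genes had a median log2 difference of 0.42, and its log2 difference with each chromosome centred was 0.75 (limma adjusted p = 0.000878).

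Anxa2, the partner of S100a10, was singled out after its values were seen. The cKO libraries 1 to 3 held 1428.14, 1362.13 and 1404.61 RPKM and the WT libraries 1211.85, 1224.41 and 1220.09 RPKM. The groups did not overlap and cKO was the higher (log2 difference 0.2 ± 0.05 SE, limma adjusted p = 0.013), but 8 of 19 alternatives lost this call and with each chromosome centred the difference was −0.11 (adjusted p = 0.158). The S100a10 to Anxa2 ratio was 0.242, 0.226 and 0.222 in cKO replicates 1 to 3, against 0.506, 0.48 and 0.516 in WT replicates 1 to 3, so the ratio was 2.18-fold lower in cKO libraries. The S100a11 to Anxa1 ratio went the other way, at 15, 11.3 and 8.66 in cKO and 3.62, 3.66 and 3.58 in WT libraries, 3.22-fold higher in cKO. Neither ratio overlapped between groups, and each had an exact 2-sided permutation p of 0.1, the smallest possible with 3 against 3. For S100a10 to Anxa2 this had to be so, with S100a10 lower and Anxa2 higher in every cKO library. The p of that ratio therefore adds no support.

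**Figure D2:**
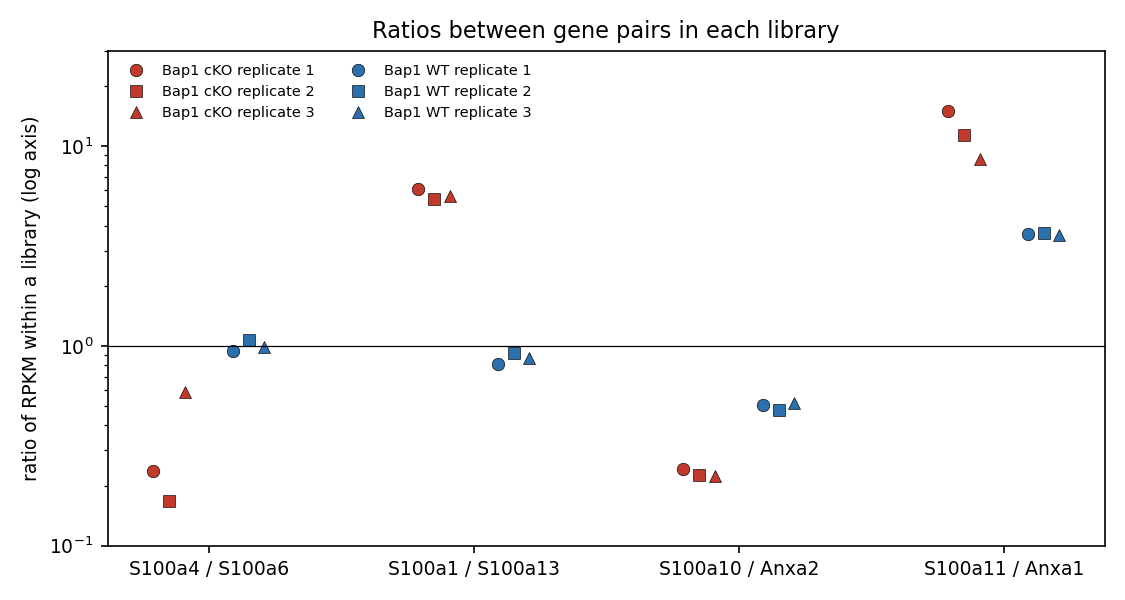
The ratio of RPKM between 2 genes is plotted within each library on a log axis, Bap1 cKO libraries (red) left of Bap1 WT libraries (blue), a symbol per replicate. S100a4 to S100a6 and S100a10 to Anxa2 are lower in cKO libraries, while S100a1 to S100a13 and S100a11 to Anxa1 are higher, and no pair of groups overlaps.

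S100a1 and S100a13 start next to each other on opposite strands, and they fell by very different factors. S100a13, which takes part in the non-classical release of FGF1 and interleukin 1 alpha, was at 22.6, 30.81 and 20.57 RPKM in cKO replicates 1 to 3, against 305.43, 248.73 and 292.27 RPKM in the WT libraries. All cKO values were about alike and far under the WT range. The means were 24.7 ± 5.42 RPKM in cKO and 282.1 ± 29.7 RPKM in WT libraries (SD, n = 3 each), an 11.4-fold fall (log2 difference −3.48 ± 0.16 SE, limma adjusted p = 1.28e-05), and only 1.53% of tested genes had a lower log2 difference.

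S100a1, a regulator of calcium cycling known from heart and skeletal muscle, was at 138.12, 166.72 and 115.52 RPKM in cKO replicates 1 to 3 and at 246.88, 229.53 and 253.81 RPKM in WT replicates 1 to 3. It fell 1.74-fold (140.1 ± 25.7 RPKM in cKO and 243.4 ± 12.5 RPKM in WT libraries, SD, n = 3 each; log2 difference −0.81 ± 0.134 SE, limma adjusted p = 0.00221). In the WT libraries S100a13 and S100a1 overlapped in level, and in the cKO libraries they did not. The S100a1 to S100a13 ratio was 6.11, 5.41 and 5.62 in the cKO libraries and 0.808, 0.923 and 0.868 in the WT libraries. It was 6.59-fold higher in cKO (exact 2-sided permutation p = 0.1, the smallest possible), and cKO replicate 3 did not stand apart in it.

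The starts of S100a1 (chr3:90511034-90514392, minus strand) and S100a13 (chr3:90514435-90524581, plus strand) leave 42 bases between them in GENCODE M21 (GRCm38). The RefSeq window of S100a1, chr3:90514281-90514580, is set by a start inside the GENCODE gene, so more bases lie between the RefSeq starts. The stretch between the GENCODE starts is printed because it is part of the shared upstream side of a pair whose members moved by different factors. It is given on the plus strand, from RefSeq, with no part in capitals (GRCm38.p6, chr3:90514393-90514434, 5′ to 3′):
S100a1-S100a13: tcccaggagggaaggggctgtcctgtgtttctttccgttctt
None of the 3 motifs named above was in the 300-base window of S100a1 or S100a13.

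S100a16, a widely expressed member whose first EF-hand is thought not to bind calcium, had the pattern closest to that of S100a13 among the members (root mean square difference of centred log2(RPKM + 1) over the 6 libraries 0.508). It was at 34.29, 46.61 and 30.41 RPKM in cKO replicates 1 to 3, against 207.99, 197.72 and 216.14 RPKM in WT replicates 1 to 3. As in S100a13 and S100a1, cKO replicate 2 was the highest and cKO replicate 3 the lowest of its group. The fall was 5.59-fold (37.1 ± 8.46 RPKM in cKO and 207.3 ± 9.23 RPKM in WT libraries, SD, n = 3 each; log2 difference −2.47 ± 0.153 SE, limma adjusted p = 4.06e-05).

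**Figure D3:**
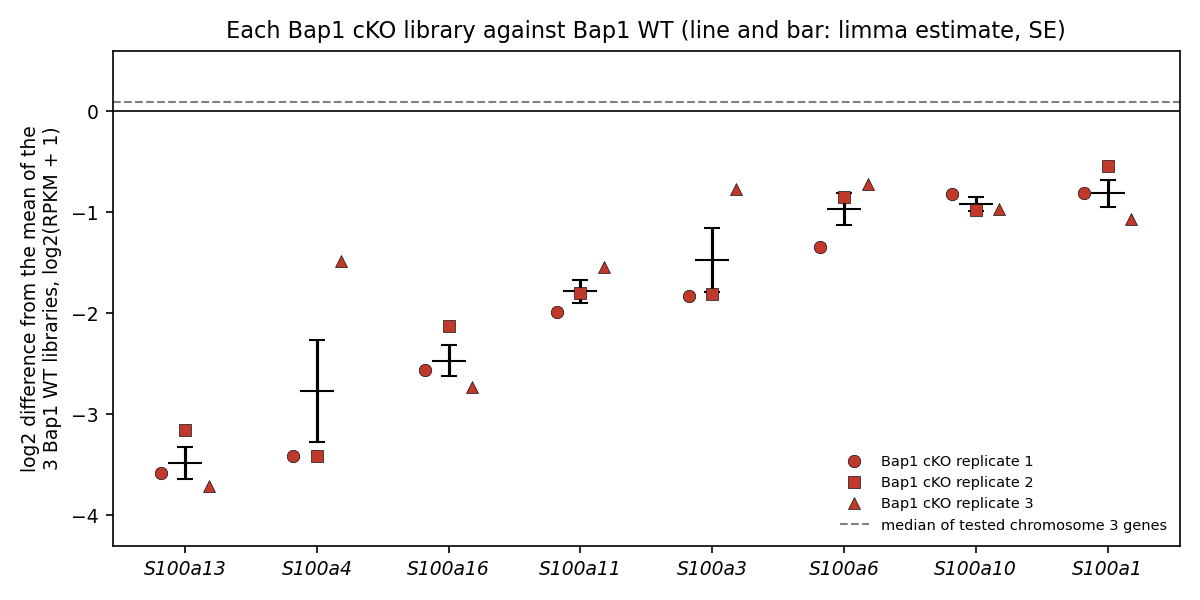
For each tested S100 gene, the red symbols give the log2(RPKM + 1) difference of a single Bap1 cKO library from the mean of the 3 Bap1 WT libraries; the black line and bar give limma's estimate and its SE. All 24 points lie under 0 and under the dashed median of tested chromosome 3 genes at 0.09, with cKO replicate 3 nearest to 0 in S100a4, S100a11, S100a3 and S100a6 and farthest in S100a13, S100a16 and S100a1.

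One library at a time against the mean of the 3 WT libraries, cKO replicates 1, 2 and 3 differed by −3.41, −3.41 and −1.48 in S100a4 and by −1.83, −1.81 and −0.77 in S100a3 on the log2(RPKM + 1) scale. In S100a6 the differences were −1.34, −0.85 and −0.72, and in S100a11 −1.99, −1.8 and −1.54. In this group of 4 genes replicate 3 was the closest to WT. In S100a13 they were −3.58, −3.15 and −3.71, in S100a16 −2.56, −2.13 and −2.73, and in S100a1 −0.81, −0.54 and −1.07. In these 3 genes replicate 3 was the farthest from WT, and in S100a10, at −0.82, −0.98 and −0.97, replicates 2 and 3 were level. These are values of single libraries and carry no test.

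The order of levels changed with the groups. In cKO libraries it ran S100a6, S100a4, S100a11, S100a10, S100a1, S100a16, S100a13, S100a3 and S100b, and the values of S100a4 and S100a11 and of S100a16 and S100a13 overlapped. In WT libraries it ran S100a6, S100a4, S100a11, S100a10, S100a13, S100a1, S100a16, S100a3 and S100b, and S100a6 overlapped S100a4 and S100a13 overlapped S100a1. The other neighbours in each order did not overlap. The S100a4 to S100a6 ratio was 0.237, 0.168 and 0.588 in cKO replicates 1 to 3 and 0.943, 1.07 and 0.986 in WT replicates 1 to 3. It was 3.02-fold lower in cKO (exact 2-sided permutation p = 0.1, the smallest possible), and 4.94-fold lower without cKO replicate 3. Transcripts of different members shared no run of more than 14 bases, far below the read length of 151 bp.

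On chromosome 3 the members form 2 groups. The 6 members from S100a1 to S100a6 lie between 90511034 and 90624181 (GRCm38), and S100a11 and S100a10 lie between 93520488 and 93564643. Within 500 kb of this span 169 other genes are annotated and 18 were tested. Of these 18, 3 were lower, 8 higher and 7 not past the threshold, with a median log2 difference of 0.27 (2 of the 11 called met the minimum through 1 group only), against 0.09 for the 590 tested genes of chromosome 3, of which 26.6% were lower and 29.2% higher. Apart from Sprr1a, all tested neighbours lay before S100a1, so they do not describe the surroundings of S100a11 and S100a10. The gene next to S100a1, Chtop, an mRNA export factor singled out after its values were seen, lies on the minus strand, as S100a1 does, with 1535 bases between them. Chtop was at 70.24, 72.36 and 74.26 RPKM in cKO libraries and 57.96, 58.42 and 55.91 RPKM in WT libraries, without overlap and higher in cKO (log2 difference 0.33 ± 0.0631 SE, limma adjusted p = 0.00422).

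The 4 neighbours with the smallest p went both ways. Tpm3, a tropomyosin, fell 1.43-fold (limma adjusted p = 0.000607) and Rab13, a small GTPase of vesicle traffic, fell 2.19-fold (adjusted p = 0.00119). Gatad2b, a subunit of the NuRD complex, rose 1.83-fold (limma adjusted p = 0.00162) and Jtb rose 1.39-fold (adjusted p = 0.00232). The only tested gene that is no member between S100a6 and S100a11 was Sprr1a, a cornified envelope gene chosen after its values were seen, at 0.12, 0.11 and 0.94 RPKM in cKO and 2.54, 2.7 and 2.39 RPKM in WT libraries. Sprr1a met the minimum only through the WT libraries, in which it is high, so no p is given for it.

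**Figure D4:**
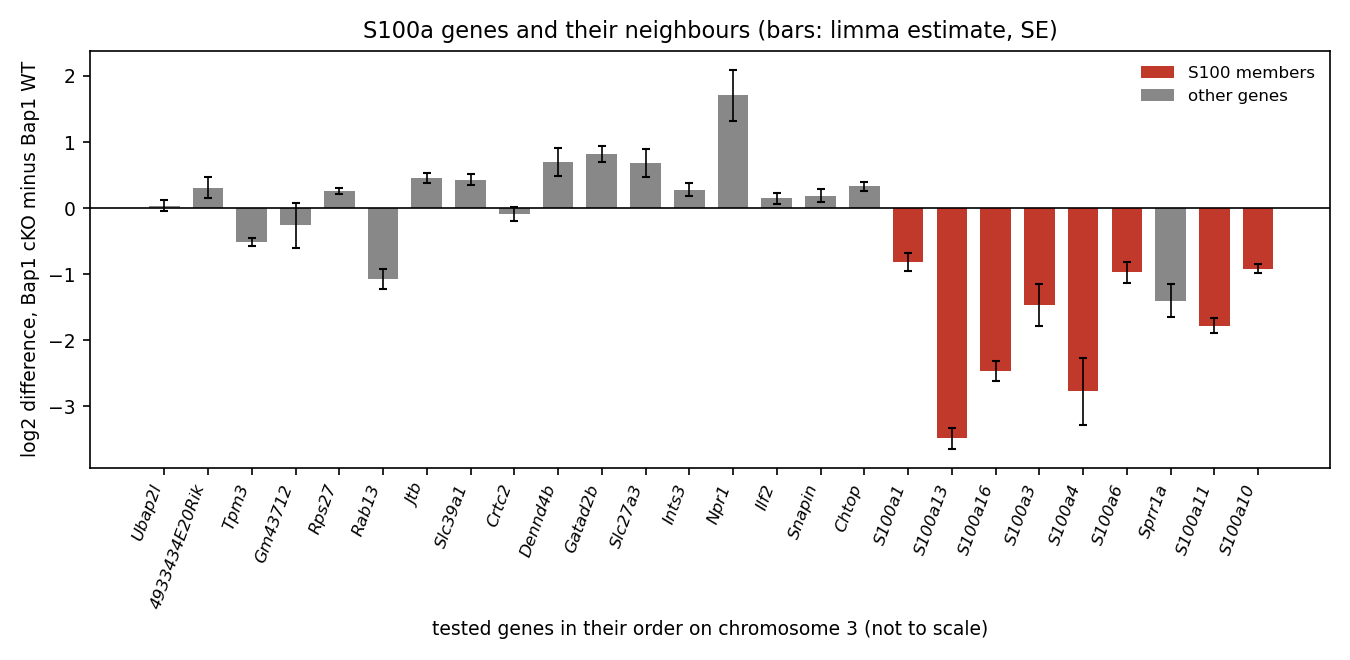
Bars give limma's log2 difference, Bap1 cKO minus Bap1 WT, with its SE, for the 26 tested genes within 500 kb of the S100a span in their order on chromosome 3 (spacing not to scale). The S100 members (red) are all under 0, while the other genes (grey) lie above and under 0. Chtop is at 0.33 next to S100a1 at −0.81, and all grey genes but Sprr1a come before S100a1.

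S100b, known from glia and chondrocytes, was at 0.06, 0.68 and 0 RPKM in cKO replicates 1 to 3 and at 0.15, 0.8 and 0.61 RPKM in the WT libraries. The groups overlapped, and its mean was under the 1 RPKM needed for the test. With a minimum mean of 0.1 RPKM the log2 difference was −0.3 ± 0.254 SE (limma adjusted p = 0.355). A total of 3 fragments would be worth 0.105 to 0.175 RPKM in this gene, a floor that covers counting error only, so cKO replicates 1 and 3 and WT replicate 1 were under their floors, while cKO replicate 2 and WT replicates 2 and 3 were above theirs. S100b overlaps Dip2a on the opposite strand, which reached 36.31 RPKM, and whether strand was used in counting is not given in the sources used here. Of 8 glial and Schwann cell markers none was tested, and their sum was 1.14 to 2.24 RPKM in cKO and 1.95 to 2.54 RPKM in WT libraries, with Sox10 and Foxd3 listed at 0 throughout.

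Of 9 further S100 genes sought by name, 8 were in the table. S100g, left out by the choice of members, was the one that passed the test's minimum, and it stood at 5207.36, 4665.89 and 1604.13 RPKM in cKO libraries and was listed at 0 in all 3 WT libraries. With it, 8 of 9 tested S100 genes were lower and 1 was higher in cKO. Over all tested genes 26.5% were lower and 34.7% higher. S100g, the higher one, met the minimum only through the cKO libraries, in which it is high, so no p is given for it. S100a5 was listed at 0 in all cKO libraries and at 0.94, 4.22 and 0.62 RPKM in WT libraries. S100a8 and S100a9, the subunits of calprotectin in neutrophils, reached 0.51 and 0.29 RPKM in cKO and 0.24 and 0.49 RPKM in WT libraries. The leukocyte markers were low as well. Their sum over 11 genes was 5.85 to 7.97 RPKM in cKO and 2.82 to 3.93 RPKM in WT libraries, and 4 were listed at 0 throughout. Cd68 was the one tested and was higher in cKO (limma adjusted p = 0.00344), and it made up most of the sum in every library. S100a7a, S100a14 and S100a2 stayed under 1 RPKM in every library, and S100z was listed at 0 in all.

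Other partners and receptors of S100 proteins moved both ways. Of 21 listed genes 15 were tested, and 8 were lower, 3 higher and 4 not past the threshold, with a median log2 difference of −0.28. Over all tested genes 26.5% were lower and 34.7% higher. Mdm2, the p53 ubiquitin ligase, fell 2.55-fold (limma adjusted p = 2.92e-05), and Cacybp, the partner of S100a6, fell 1.52-fold (adjusted p = 0.003). Ager, which encodes RAGE, was at 0.727 ± 0.0757 RPKM in cKO and 2.62 ± 0.206 RPKM in WT libraries (SD, n = 3 each); it is among the 8 but met the minimum only through the WT libraries, so no p is given for it. The number higher was 2 without cKO replicate 1 or 2 or any 1 WT library, and 5 without cKO replicate 3. Myh10, the heavy chain of non-muscle myosin IIB, rose 17.4-fold to 21.8 ± 9.34 RPKM in cKO, against 1.25 ± 0.457 RPKM in WT libraries (limma adjusted p = 0.000178). It lies on chromosome 11, with a median log2 difference of 0.42, and its own was 2.8 with each chromosome centred. Fgf1 and Il1a, the cargo of S100a13, reached 0.57 RPKM and were listed at 0.

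Across the 6 libraries, the genes whose centred log2(RPKM + 1) was closest to the 3 members with the largest differences were matrix, cytoskeletal and other genes. For S100a13 these were Thbd and Col6a2, at root mean square differences of 0.0815 and 0.139. For S100a4 they were Lbh and Col12a1 (0.119 and 0.165), and for S100a16 they were Gsn and Acot7 (0.056 and 0.113). Lbh had 1.63, 2 and 10.51 RPKM across the cKO libraries and 25.98, 25.37 and 26.43 RPKM across the WT libraries, with cKO replicate 3 between the other cKO libraries and WT. Gsn, the actin-severing protein gelsolin, stood at 85.9, 120.64 and 79.23 RPKM in cKO and 509.86, 475.81 and 494.44 RPKM in WT libraries, with the order of cKO libraries seen in S100a16. These are descriptions over 6 libraries, whose depths and groups are the same for every gene compared, and no test goes with them. Lbh and Gsn were picked for their likeness to S100a4 and S100a16 over these same libraries. A shared order of cKO libraries therefore follows from the choice.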

How the data were processed

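Polyadenylated RNA of 6 libraries, 3 Bap1 cKO and 3 Bap1 WT, was sequenced after stranded library preparation, per the labels' protocols. Per the submitters' processing notes, the tools included RSEM 1.3.1, STAR 2.7.1a and cutadapt 2.8 and the build was GRCm38; the annotation version and the strand setting are not given in the sources used here. The authors deposited RPKM with 2 decimals, and no library was pooled. GENCODE M21 (GRCm38) held 55144 of the 55471 identifiers and gave symbols and coordinates, and promoter windows came from RefSeq on GRCm38.p6. Protein sequences were not used here.

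Differences were tested 2-sided with limma 3.58.1 in R 4.3.3 on log2(RPKM + 1), which understates the change of low genes, with a variance trend, genotype as the only term and Benjamini-Hochberg adjustment over the 12223 genes that averaged 1 RPKM or more. A call needs an adjusted p under 0.05, and folds are ratios of mean RPKM. Groups of 3 against 3 cannot give an exact permutation p under 0.1. Depth was estimated from low values of genes with 1 transcript of 800 to 3500 bp, less 150 bp, of which 88.6 to 92% lay within 0.2 of a whole fragment (40% by chance). The procedure was tested on simulated data. Tables and plots were made in Python 3.11.15 with pandas 2.3.3, numpy 2.4.6, scipy 1.17.1 and matplotlib 3.10.9.

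The members, the gene lists and the tests were chosen with earlier results of these data known. The genes named are the members, Bap1, the other S100 genes, up to 4 genes with the smallest p of a list or of the neighbours within 500 kb, and the 2 genes most alike for each of 3 members; Anxa2, Anxa8, Pdgfra, Chtop, Sprr1a, other genes near 0 and overlapping genes were named after their values were seen. The result of 1 gene that the rule names is not reported here. For stromal, glial, chondrocyte, endothelial, epithelial and contractile markers counts and sums are given instead. Genes that made up most of such a sum were named after their values were seen. Alternatives were pseudocounts of 0.1 and 0.5, minimum means of 0.1, 5 or none, 4 ways of scaling or centring, 2 variance priors, weights per library, a block for the replicate number, and leaving out each library.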

Additional observations from a re-analysis of the deposited data

How the results depend on the processing

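All 8 tested S100 members stayed lower and past the threshold in each of the 19 alternatives, including without any single library (8 called in every case), and none of the 152 member values reversed. Their largest adjusted p by limma over the alternatives ran from 0.000293 for S100a13 to 0.0316 for S100a3. Genes called over the whole table numbered 7476 of 12223 tested, from 5817 of 9268 with a minimum mean of 5 RPKM to 8669 of 16715 with 0.1 RPKM. With a library left out the calls ran from 6136 of 12228 to 8106 of 12185. Cluster neighbours called numbered 11 of 18 tested, from 9 of 15 with a minimum mean of 5 RPKM to 15 of 33 with 0.1 RPKM. With a library left out they numbered 9 to 12, of 18 to 20 tested. The number tested changed with the setting, so a larger count need not be a larger share. Scaling by the median of ratios moved the median log2 difference of all genes to −0.01. With the replicate number as a block, 6749 genes, 8 members and 11 neighbours were called. Same-numbered libraries did not deviate together (correlations of −0.0166, 0.0505 and −0.0189). Same-numbered libraries differ in genotype and so cannot share an animal. Whether they share a batch cannot be told from such correlations. The folds of S100a4 and S100a3 were smaller with cKO replicate 3 than without it, as given above, and S100b was too low for the test.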

Other observations

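Other EF-hand calcium-binding proteins outside the S100 family were described by the same fit. Of 29 listed genes 23 were tested, of which 12 were lower, 2 higher and 9 not past the threshold. Over all tested genes 26.5% were lower and 34.7% higher. The median log2 difference of the 23 was −0.42 beside 0.09 for all tested genes. Of the 14 called EF-hand genes, 2 met the minimum through 1 group only. The number higher was 0 without cKO replicate 2, 1 without cKO replicate 1 or any 1 WT library, and 4 without cKO replicate 3, and with each chromosome centred 18 were lower and 1 higher. Their summed level was 2032.8 to 2308.8 RPKM in cKO libraries and 2827.3 to 2872.6 RPKM in WT libraries. Calu (calumenin), a calcium binder of the secretory pathway, fell 2.3-fold to 248.8 ± 46 RPKM in cKO, against 571.7 ± 0.802 RPKM in WT libraries (SD, n = 3 each; limma adjusted p = 0.000285). Chp1, a partner of sodium-proton exchangers, fell 2.19-fold, and Sri (sorcin), a regulator of the ryanodine receptor, fell 1.88-fold (limma adjusted p = 0.00015 and 0.000172). Calb1, Calb2, Pvalb and Ocm were listed at 0 in every library.

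Of 7 chondrocyte markers 3 were tested, with 2 higher, 1 of which met the minimum only through the cKO libraries, and none lower. Over all tested genes 34.7% were higher and 26.5% lower. The sum of the 7 was 38 to 107.1 RPKM in cKO and 74.7 to 83.1 RPKM in WT libraries. Col2a1, which did not pass the threshold (limma adjusted p = 0.194), made up most of it in every library. Endothelial markers summed to at most 0.65 RPKM in cKO and 0.24 RPKM in WT libraries, with none of 5 tested. Epithelial markers summed to 1.96 to 6.01 RPKM in cKO and 12.6 to 14.9 RPKM in WT libraries, with 1 of 7 tested and lower in cKO. That gene, Krt19, made up most of the sum in every library, and 6 of the 7 stayed under 1 RPKM throughout.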
